A study of Mus musculus with 24 samples.

Results

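Mpo, Elane, Prtn3, Ctsg, Ms4a3 and Serpinb1a are genes of neutrophil priming, and their levels were measured by bulk RNA-seq in LSKs (Lin-Sca-1+c-Kit+ cells), the bone marrow population that holds hematopoietic stem cells and multipotent progenitors. They were taken by symbol from the deposited table, where 6 of 24091 genes carry these names, and 6 of 6 were among the 13520 genes that passed the filter on low counts. The 24 libraries came from B6 mice, with 4 groups of 6 that each held 3 females and 3 males. WT mice had neither the deletion nor BCR-ABL. miR-142 KO mice were miR-142-/- in all cells. CP CML mice, a model of chronic phase chronic myeloid leukemia, were miR-142+/+ BCR-ABL: the SCLtTA/BCR-ABL transgene expresses BCR-ABL from the SCL promoter once tetracycline is withdrawn. BC CML mice, a model of blast crisis, were miR-142-/- BCR-ABL, so they carried both changes. BCR-ABL had been induced for 2 weeks, and the ages of the mice are not given in the sources used here.

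Neutrophils are made in the bone marrow from progenitors that begin, at the promyelocyte stage, to fill the primary (azurophil) granules with myeloperoxidase and serine proteases. Mpo encodes myeloperoxidase, which makes hypochlorous acid. Elane, Prtn3 and Ctsg encode the serine proteases neutrophil elastase, proteinase 3 and cathepsin G, Serpinb1a encodes a cytoplasmic inhibitor of these proteases, and Ms4a3 encodes a membrane protein of granulocyte and monocyte progenitors. Their transcripts appear in multipotent progenitors that lean to the granulocyte branch, well before any granule is seen, and fade in mature neutrophils.

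Libraries held 16267965 to 24687077 counts. The targeted gene, Mir142, was at 0 counts in all 12 miR-142-/- libraries, which allows up to 3 counts per library, against 94 to 127 in WT and 68 to 153 in CP CML. Levels are given as CPM, read counts divided by library size, after scaling by TMM, a normalization on the bulk of genes. The LSK gate genes Kit (662 to 1240 CPM over all libraries) and Ly6a (30.7 to 155) were present throughout but differed between groups. Ly6a was higher in miR-142 KO than in WT (log2 fold change 1.15, edgeR adjusted p = 0.000201). It was also higher in BC CML than in CP CML (1.09, edgeR adjusted p = 0.000333), where Kit was lower (-0.46, edgeR adjusted p = 0.000546). The part of the gate in the members' levels was not tested. Ly6g, the defining surface marker of mature neutrophils, was at or below 0.164 CPM in every library. Other genes of secondary granules and mature neutrophils were not absent. A list of 20 of them summed to 173 to 322 CPM in WT and 233 to 274 in CP CML. In miR-142 KO the sum was 241 to 501 CPM and in BC CML 302 to 428. Cd3e, the defining marker of T cells, was at or below 4.07 CPM. Markers of other cell types were not all low. The 9 B lineage markers summed to 68.3 to 948 CPM in WT and 163 to 733 in CP CML. In miR-142 KO they summed to 27.0 to 44.9 CPM and in BC CML to 28.5 to 39.9. In bulk samples, fewer cells of a type and less RNA per cell cannot be told apart.

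Libraries stood apart on these genes in both groups without BCR-ABL. WT replicate 3 was the highest WT library for 5 of 6 members, with 3790 CPM of Mpo where the other WT libraries had 1033 to 2060. miR-142 KO replicate 3 was the lowest of its group for 4 of 6 members, with 1397 CPM of Mpo where the others had 4385 to 5118, but it was the highest for Serpinb1a. It also held the lowest Irf8 of the 24 libraries, 43.0 CPM. Both libraries stayed in the fits, and values without them are given beside the results they touch.

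Members share letters in the bases before their RefSeq start. Of 6 members, 5 had a promoter window in RefSeq (build GRCm38.p6), and the 250 bases before the start were searched on both strands for 4 motifs of factors active in granulocyte progenitors. The ETS letters AGGAAGT, a form bound by PU.1, lay in 4 of 5 windows (Mpo, Elane, Prtn3 and Ctsg) and in 7.69% of all 32851 windows. The MYB letters CAACGG lay in Elane and Prtn3, at -51 to -46 and -56 to -51 from the RefSeq start, and in 4.05% of all windows. GENCODE vM21 has a start 65 bases before that of RefSeq in Elane, 53 in Prtn3 and 203 in Mpo. By GENCODE, the MYB letters of Elane thus lie past the start and those of Prtn3 span it. Most of the Mpo bases searched also lie past it. The RUNX letters TGTGGT were found in 1 member, Ctsg, on the opposite strand, and in 14% of all windows, and the C/EBP letters TTGCNNAA in 0 of 5 members and in 9.56% of all. The motifs do not overlap one another in these windows, and they were chosen with the sequences in view, so the matches describe the letters only. The stretches around the ETS letters are shown because they are what these members have in common, each 5′ to 3′ on the strand of its gene, with the ETS letters in capitals and ending before the first start that RefSeq or GENCODE vM21 gives:
Mpo, chr11:87793534-87793580, plus strand: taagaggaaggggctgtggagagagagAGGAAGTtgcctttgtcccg
Elane, chr10:79886192-79886246, plus strand: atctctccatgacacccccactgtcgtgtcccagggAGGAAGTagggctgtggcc
Prtn3, chr10:79879537-79879613, plus strand: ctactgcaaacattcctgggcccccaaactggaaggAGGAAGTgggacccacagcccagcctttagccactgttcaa
Ctsg, chr14:56102738-56102816, minus strand: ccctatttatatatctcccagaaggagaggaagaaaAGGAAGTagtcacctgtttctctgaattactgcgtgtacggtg

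The 2 mature forms of the deleted microRNA (RefSeq, GRCm38.p6) are shown because their seeds, bases 2 to 8 in capitals, set which transcripts they can pair with:
mmu-miR-142a-5p: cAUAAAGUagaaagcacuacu
mmu-miR-142a-3p: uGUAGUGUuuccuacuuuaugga
In the longest 3' UTR that GENCODE vM21 gives each member, the 3p site ACACTAC was found in 0 of 6 members, against 7.57% of 12622 tested genes with a 3' UTR. The 5p site ACTTTAT was found in 1 member, Serpinb1a, against 16.3% of those genes. It lay at bases 294 to 300 of 726, with the site in capitals: ccatcctcaaACTTTATggactgtagg. These UTRs were short, from 78 bases in Ctsg to 726 in Serpinb1a, and a match of letters is not a measured site.

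Per kilobase of transcript, which allows genes to be compared, Mpo stood highest of the members in every group. Among 13426 tested genes of at least 0.2 kb it ranked 12 in WT, 3 in CP CML, 4 in miR-142 KO and 8 in BC CML. Ctsg ranked 145, 16, 16 and 10 in the same order, and Elane 278, 71, 24 and 24. Prtn3 moved from 173 in WT to 25 in BC CML, and Ms4a3, the lowest member, from 3467 to 148. The granule enzymes thus ranked at 278 or better in every group, while the best ranks of Ms4a3 and Serpinb1a were 148 and 86. Mpo made up 73.0% of the summed CPM of the 6 members in WT, 66.9% in CP CML, 64.9% in miR-142 KO and 50.9% in BC CML.

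Mpo was lowest in WT and did not separate the other groups. It had a low, a median and a high of 1033, 1691 and 3790 CPM in WT and of 1397, 4510 and 5118 in miR-142 KO. In CP CML these were 3150, 4130 and 5314 CPM, and in BC CML 3294, 3739 and 4921. The ranges overlapped between every pair of groups, and those of CP CML and BC CML lay almost on each other. Mpo lies on chromosome 11 (mm10, chr11:87793784-87804412).

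For Elane, the medians of both miR-142-/- groups were above those of both miR-142+/+ groups. WT libraries ran from 35.2 through a median of 85.8 to 285 CPM, and CP CML libraries from 208 through 276 to 480. In miR-142 KO the values were 175, 622 and 791 CPM, and in BC CML 498, 704 and 787. The BC CML libraries all lay above the CP CML libraries, while miR-142 KO and BC CML overlapped. Without replicate 3, the lowest miR-142 KO library had 554 CPM, above every CP CML library. Elane (chr10:79886312-79888216) and Prtn3 (chr10:79879667-79883172) are neighbours on the same strand, 3.14 kb apart.

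Prtn3 followed a stepped order. It had a low, a median and a high of 90.8, 147 and 317 CPM in WT and of 326, 439 and 593 in miR-142 KO. CP CML libraries had 359, 491 and 602 CPM, and BC CML libraries 658, 732 and 841. WT lay below all other groups and BC CML above all others, with no overlap, and the groups with a single change overlapped.

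Ctsg (chr14:56099885-56102574) was also lowest in WT and highest in BC CML. WT libraries spread from 74.5 through 162 to 360 CPM, whereas miR-142 KO libraries were close together at 682, 755 and 821 CPM. CP CML had 537, 696 and 930 CPM and BC CML 1039, 1446 and 1627. Each BC CML library thus held more Ctsg than any library of another group.

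Ms4a3 (chr19:11629499-11640851) was the least abundant member. It had a low, a median and a high of 13.7, 34.8 and 91.6 CPM in WT and of 163, 192 and 211 in miR-142 KO. CP CML libraries had 184, 252 and 335 CPM, and BC CML libraries 251, 438 and 504. BC CML overlapped CP CML through 1 low library, BC CML replicate 3, which was the lowest BC CML library for 5 of 6 members.

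Serpinb1a (chr13:32842092-32851185), the inhibitor, was lowest in WT and highest in BC CML. WT libraries had 174 to 251 CPM with a median of 196, and miR-142 KO libraries 245 to 333 with a median of 271. CP CML libraries had 283 to 376 CPM with a median of 330, and BC CML libraries 406 to 701 with a median of 586. BC CML lay above every other group without overlap, and the ranges of WT and miR-142 KO overlapped by little. Its relatives Serpinb1b and Serpinb1c were at or below 0.101 CPM in all libraries. How reads that match several of these genes were counted is not given, so these levels do not show whether reads were shared.

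**Figure D1:**
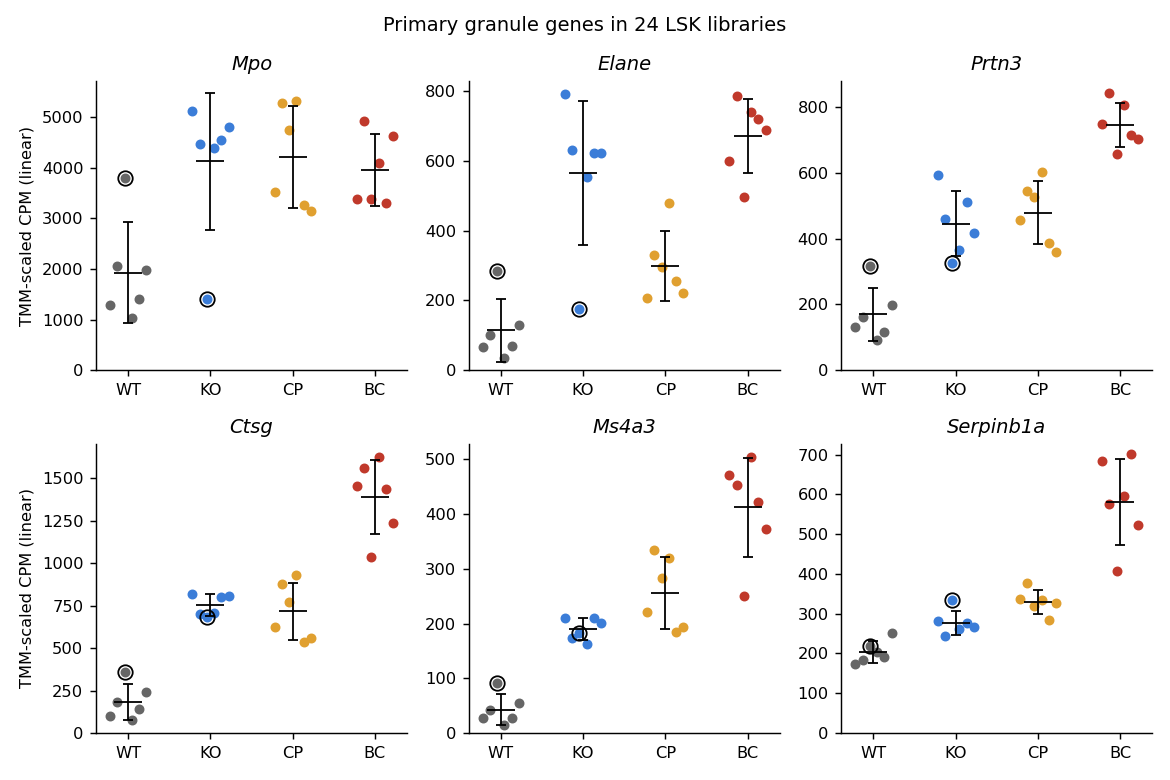
TMM-scaled CPM (linear axis from 0) of the 6 genes in LSKs of WT, KO (miR-142 KO), CP (CP CML) and BC (BC CML) mice, with a point for each mouse, with the mean and SD of 6 mice as bars. Circles mark WT replicate 3 and miR-142 KO replicate 3, which lie at 3790 and 1397 CPM of Mpo, away from the rest of their groups.

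Loss of miR-142 without BCR-ABL was tested by comparing miR-142 KO with WT LSKs. All 6 members rose (edgeR quasi-likelihood test with Benjamini-Hochberg adjustment over all tested genes). Elane rose most, 4.94-fold (log2FC 2.31, SE 0.37, adjusted p = 4.13e-05), followed by Ms4a3 with 4.44-fold (log2FC 2.15, SE 0.29, adjusted p = 4.92e-06). Ctsg rose 4.13-fold (adjusted p = 1.68e-06) and Prtn3 2.63-fold (adjusted p = 2.05e-05). Mpo rose 2.14-fold (log2FC 1.10, SE 0.28, adjusted p = 0.00328), and Serpinb1a rose least, 1.36-fold (adjusted p = 0.00245). Across all tested genes, 36.3% passed in either direction and 19.9% were higher. In 3 of 6 members (Prtn3, Ctsg and Ms4a3) every miR-142 KO library lay above every WT library, as in 8.31% of tested genes. The median log2FC of the members was 1.72, against 0.0054 for all tested genes. With WT replicate 3 and miR-142 KO replicate 3 left out, all 6 still rose, and the log2FC of Mpo became 1.59 and that of Elane 3.01.

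BCR-ABL in miR-142+/+ mice was tested by comparing CP CML with WT LSKs, which share the WT libraries with the previous comparison. All 6 members rose, led by Ms4a3 with 5.98-fold (log2FC 2.58, SE 0.30, adjusted p = 7.56e-07). Ctsg rose 3.92-fold (adjusted p = 3.64e-06), Prtn3 2.83-fold (adjusted p = 1.10e-05) and Elane 2.61-fold (adjusted p = 0.00378). Mpo rose 2.18-fold (adjusted p = 0.00216) and Serpinb1a 1.62-fold (adjusted p = 2.93e-05). Of all tested genes, 45.4% passed and 22.5% were higher. Every CP CML library lay above every WT library in 4 of 6 members (Prtn3, Ctsg, Ms4a3 and Serpinb1a) and in 11.9% of tested genes. The members' median log2FC was 1.44 against -0.02 for all tested genes. Without WT replicate 3 the log2FC of Elane was 1.90 in place of 1.38, and all 6 remained higher.

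BC CML was compared with CP CML to see what the lack of miR-142 adds in the presence of BCR-ABL. Of the 6 members, 4 rose and 2 did not pass. Elane rose 2.25-fold (log2FC 1.17, SE 0.36, adjusted p = 0.0127) and Ctsg 1.95-fold (log2FC 0.96, SE 0.25, adjusted p = 0.00397). Serpinb1a rose 1.76-fold with the smallest error of the 6 (log2FC 0.82, SE 0.11, adjusted p = 3.19e-06), and Prtn3 rose 1.56-fold (adjusted p = 0.0196). Ms4a3 had a log2FC of 0.69 (SE 0.28) and missed the threshold (adjusted p = 0.0550), and Mpo had a log2FC of -0.09 (SE 0.27, adjusted p = 0.818). Of all tested genes, 38% passed and 20.4% were higher. The 4 members that rose were also those in which all BC CML libraries lay above all CP CML libraries, as in 11.4% of tested genes. The members' median log2FC was 0.75 against 0.01 for all tested genes. Prtn3 no longer passed without CP CML replicate 5 (adjusted p = 0.0559) or CP CML replicate 6 (adjusted p = 0.0597), and Ms4a3 passed without BC CML replicate 3 (adjusted p = 0.0342) or CP CML replicate 2 (adjusted p = 0.0489).

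BC CML was also compared with miR-142 KO, which shows what BCR-ABL adds in the absence of miR-142 and shares the BC CML libraries with the comparison above. Of 6 members, 4 rose: Ms4a3 2.17-fold (adjusted p = 0.00349), Serpinb1a 2.10-fold (adjusted p = 1.40e-07), Ctsg 1.85-fold (adjusted p = 0.00743) and Prtn3 1.67-fold (adjusted p = 0.00795). Elane had a log2FC of 0.25 (SE 0.36, adjusted p = 0.606) and Mpo of -0.06 (SE 0.27, adjusted p = 0.878). Of all tested genes, 39.6% passed and 20.3% were higher, and in the 4 members that rose, as in 6.09% of tested genes, every BC CML library lay above every miR-142 KO library. The members' median log2FC was 0.81 against -0.02 for all tested genes. Without miR-142 KO replicate 3 the same 4 passed, with log2FC values of 1.09, 1.12, 0.85 and 0.65 in the order given, and Elane came to 0.05.

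Set side by side, the inhibitor Serpinb1a had its larger differences on the way to BC CML (log2FC 0.82 and 1.07) and its smaller ones from WT to a single change (0.44 and 0.69). Mpo passed against WT in both single changes (1.10 and 1.13) and in neither comparison with BC CML. Whether the effect of miR-142 loss differed with BCR-ABL was tested by the difference of the effects, BC CML minus CP CML less miR-142 KO minus WT. It was -1.46 for Ms4a3 on the log2 scale (SE 0.40, adjusted p = 0.0378), so the fold rise of Ms4a3 was smaller with BCR-ABL present. Mpo (-1.19, SE 0.39, adjusted p = 0.0852), Elane (-1.13, adjusted p = 0.216), Prtn3 (-0.76, adjusted p = 0.154) and Ctsg (-1.09, adjusted p = 0.0837) did not pass, nor did Serpinb1a, the only member with a positive difference (0.38, adjusted p = 0.170). The share of all tested genes that passed was 3.99%, with 1.91% higher. This result turned on single libraries: without WT replicate 3, 5 members passed, all negative. The difference of Ms4a3 lost its pass in 11 of the 24 fits that each left out 1 mouse. Shares of all tested genes in these fits are not given here, so the 5 have no background share.

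**Figure D2:**
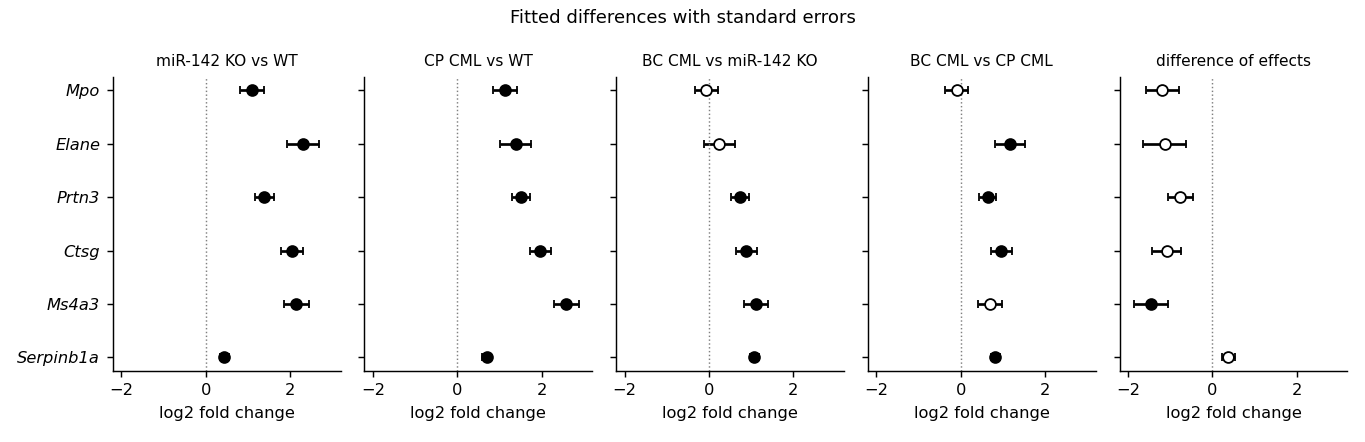
Log2 fold changes of the 6 genes with standard errors in 4 comparisons, and the difference of effects (BC CML minus CP CML less miR-142 KO minus WT). Filled points passed an adjusted p of 0.05: 6 of 6 in both comparisons with WT, 4 of 6 in both comparisons with BC CML, and Ms4a3 alone in the difference of effects.

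The balance among the members also differed between groups. Ratios of counts need no scaling between libraries, and they were compared for 15 pairs of members in 4 comparisons with exact two-sided permutation tests, adjusted over all 60. The smallest p that 6 against 6 libraries allow is 0.002165. Of the 60 ratios 36 passed: 9 of 15 for BC CML with CP CML, 10 for miR-142 KO with WT, 11 for CP CML with WT and 6 for BC CML with miR-142 KO. The 15 pairs are made from 6 genes, so they are not separate results. Ratios of other genes were not compared, so these counts have no background share.

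The ratio of Mpo to Elane counts was 13.3 to 29.3 in WT and 11.1 to 16.9 in CP CML libraries, and 6.47 to 7.99 in miR-142 KO and 4.58 to 6.81 in BC CML libraries. The 12 miR-142-/- libraries thus all lay below the 12 miR-142+/+ libraries, and miR-142 KO replicate 3, low in both genes, had a ratio of 7.99, next to its group. From WT to miR-142 KO the ratio fell 2.58-fold and from CP CML to BC CML 2.45-fold (exact permutation p = 0.002165 and adjusted p = 0.005905 in both). From WT to CP CML it was lower by 1.33-fold, which did not pass (exact permutation, adjusted p = 0.0866), and from miR-142 KO to BC CML by 1.26-fold, which did (adjusted p = 0.0144).

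In BC CML each of the 5 ratios with Mpo on top was lower than in CP CML (exact permutation p = 0.002165, adjusted p = 0.005905 for each). The difference was 2.07-fold for Ctsg, 1.84-fold for Serpinb1a, 1.70-fold for Ms4a3 and 1.66-fold for Prtn3, beside the 2.45-fold for Elane. Each of the 5 passed in all 12 sets that left out 1 mouse. Against miR-142 KO the same 5 ratios were lower in BC CML (exact permutation, adjusted p from 0.0144 to 0.0469), but miR-142 KO replicate 3 overlapped BC CML: its ratio of Mpo to Ctsg was 2.05 where the other miR-142 KO libraries had 5.66 to 6.39 and BC CML 2.29 to 3.75. Leaving out single mice, the ratio of Mpo to Elane passed in 12 of 12 sets, that to Ms4a3 in 8, to Prtn3 in 3, to Ctsg in 2 and to Serpinb1a in 1. Against WT, the ratio of Mpo to Ctsg was also lower, 2.17-fold in miR-142 KO and 1.88-fold in CP CML. That to Ms4a3 was lower by 2.42-fold and 2.96-fold (exact permutation, adjusted p = 0.005905 for each). That to Prtn3 was lower by 1.29-fold in both and passed in CP CML only. The ratio of Mpo to Serpinb1a was higher in both and did not pass. Its median was 7.64 in WT, 12.7 in CP CML and 7.56 in BC CML.

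The ratios among the proteases also differed between groups. The ratio of Prtn3 to Ctsg fell 1.68-fold from WT to miR-142 KO and 1.45-fold from WT to CP CML (both exact permutation, adjusted p = 0.005905), and 1.25-fold from CP CML to BC CML (adjusted p = 0.0108). From miR-142 KO to BC CML it was lower by 1.08-fold, which did not pass (exact permutation, adjusted p = 0.390). The ratio of Elane to Prtn3, the adjacent genes, rose in both comparisons for miR-142, with mean log2 ratios of -0.76 in WT and 0.24 in miR-142 KO, and of -0.72 in CP CML and -0.16 in BC CML (exact permutation, adjusted p = 0.0209 for miR-142 KO with WT and 0.0108 for BC CML with CP CML). It did not pass between CP CML and WT (adjusted p = 0.867) or between BC CML and miR-142 KO, where the difference had the opposite sign (-0.40, exact permutation, adjusted p = 0.171). miR-142 KO replicate 3 had a log2 ratio of -0.90 where the other 5 libraries of its group had 0.28 to 0.60 with a median of 0.45. The ratio passed for miR-142 KO with WT in 12 of 12 sets that left out 1 mouse.

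**Figure D3:**
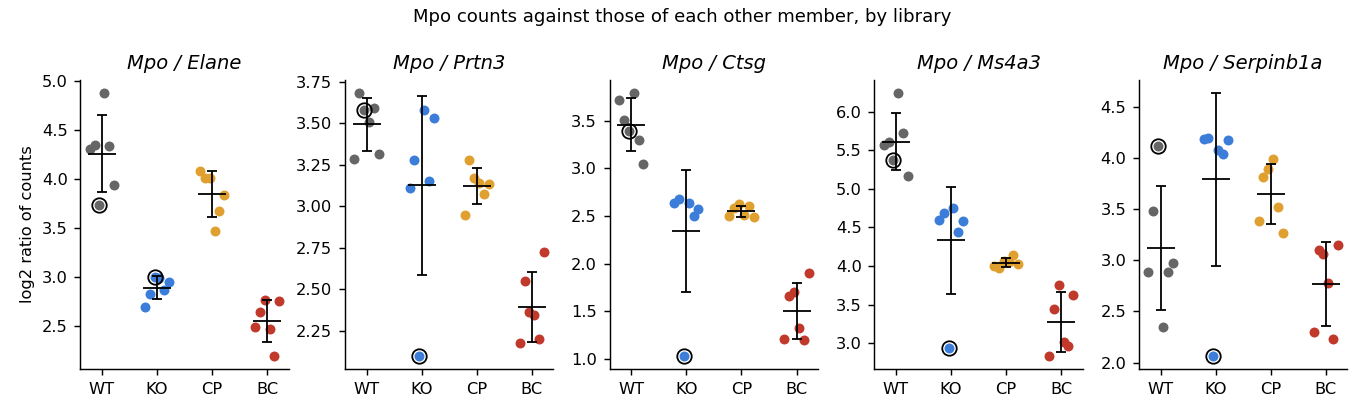
Log2 ratios of Mpo counts to the counts of each other member in each library, with the mean and SD of 6 mice per group. Circles mark WT replicate 3 and miR-142 KO replicate 3. The ratio to Elane parts the miR-142-/- groups (KO and BC) from the miR-142+/+ groups (WT and CP), and all 5 ratios are lower in BC than in CP.

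Mpo is the member that lies next to the targeted gene. Mir142 and Mpo are 36.9 kb apart, with Tspoap1, which encodes an adaptor protein that binds the mitochondrial translocator protein, between them. Tspoap1 had 18.3 to 36.1 CPM in WT and 39.6 to 59.7 in CP CML but 3894 to 5776 CPM in miR-142 KO and 3940 to 5257 in BC CML. Its log2FC was 7.56 (SE 0.19, adjusted p = 2.66e-19) for miR-142 KO with WT and 6.54 for BC CML with CP CML, so the allele without Mir142 came with a high level of its neighbour. Within 500 kb of Mir142, 7 of 19 tested genes passed for miR-142 KO with WT and 8 of 19 for BC CML with CP CML. Both counts include the deleted Mir142 itself and Mir142b, which overlaps it (log2FC of Mir142b -6.78 and -7.02). Their passes were set by the deletion, so the counts are not those of neighbours alone. Of all tested genes 36.3% and 38% passed. On the far side of Mpo, 2.02 kb away, Lpo, the lactoperoxidase gene, was at or below 0.236 CPM in all libraries. Mks1, a ciliary gene, had log2FC values of 0.01 (adjusted p = 0.913) and -0.32 (adjusted p = 0.00272). Epx, the eosinophil peroxidase gene, had log2FC values of 0.94 (adjusted p = 0.306) and -2.97 (adjusted p = 0.00350). The part of this allele in the level of Mpo was not tested.

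**Figure D4:**
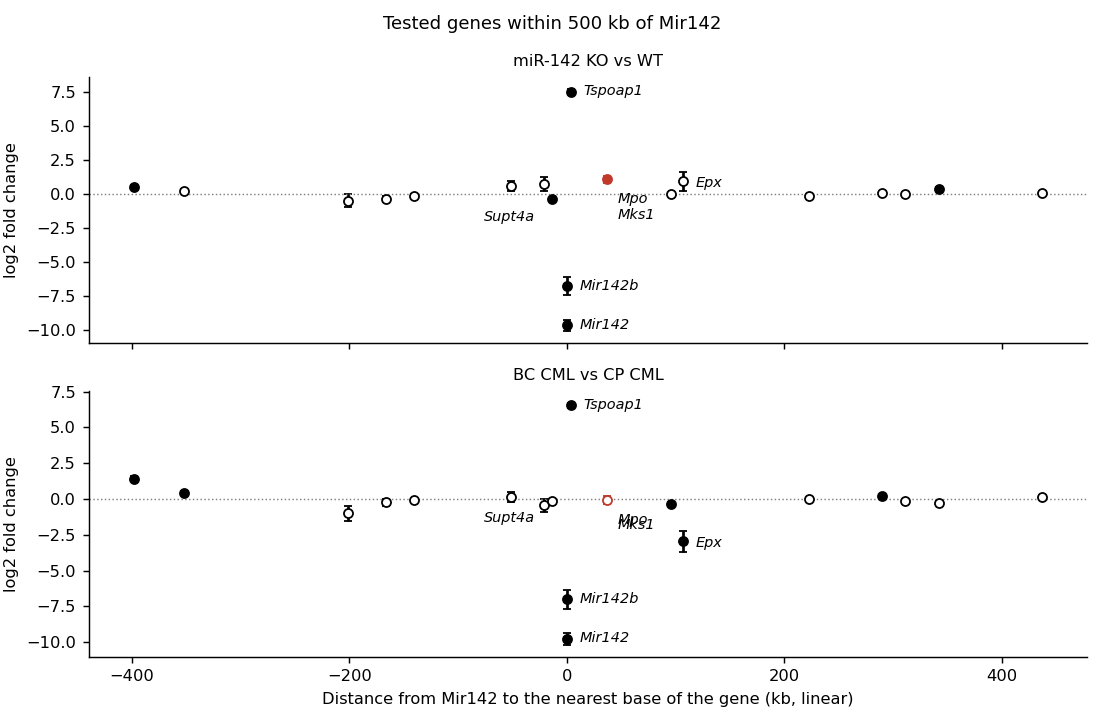
Log2 fold changes with standard errors of the tested genes within 500 kb of Mir142, by distance in kb, for miR-142 KO with WT (top) and BC CML with CP CML (bottom). Filled points passed an adjusted p of 0.05. Tspoap1 lies at 7.56 and 6.54, and Mpo, in red, at 1.10 and -0.09.

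The other members have neighbours of related function. At the Elane locus, Prss57, which encodes a further azurophil granule protease (NSP4), rose in miR-142 KO (log2FC 0.91, adjusted p = 0.000285) and in CP CML (0.96, adjusted p = 0.000147) against WT, and had 20.8 to 48.9 CPM in WT and 57.6 to 104 in BC CML. Med16, a Mediator subunit gene at the same locus, had 47.5 to 66.7 CPM over all libraries. It fell in BC CML against CP CML (log2FC -0.20, edgeR adjusted p = 0.0131). Against WT it did not pass in miR-142 KO or CP CML. Palm, which encodes paralemmin, rose in miR-142 KO and CP CML against WT (log2FC 0.74 and 0.77, adjusted p = 1.45e-05 and 1.20e-05). Of the 8 tested genes of the locus, Elane and Prtn3 among them, 7 rose in miR-142 KO against WT. In CP CML against WT 5 rose and 1 fell. In BC CML 3 rose and 1 fell against CP CML, and 1 rose and 2 fell against miR-142 KO. All tested genes passed at shares of 36.3%, 45.4%, 38% and 39.6% in that order.

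Ctsg lies in a cluster with granzymes and mast cell proteases, and several of these rose with BCR-ABL. Cma1, the mast cell chymase, had 0.586 to 4.35 CPM in WT and 1.06 to 8.71 in miR-142 KO, but it reached 919 to 2784 in BC CML, above the 353 to 819 of CP CML. Mcpt4 had at most 5.35 CPM without BCR-ABL and 148 to 895 with it. Gzmb, granzyme B, had 1.34 to 22.1 CPM without BCR-ABL and 106 to 506 with it. Of the 7 tested genes of the locus, 6 rose in CP CML against WT and 6 in BC CML against miR-142 KO, with median log2FC of 7.35 and 5.08. For miR-142 KO with WT 4 rose and for BC CML with CP CML 4 rose and 1, Mcpt2, fell. All tested genes passed at shares of 45.4%, 39.6%, 36.3% and 38% in that order. Ctsg itself, with log2FC values of 1.97 for CP CML with WT and 2.05 for miR-142 KO with WT, rose in both.

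Ms4a3 had among its neighbours Ms4a2, the beta chain of the IgE receptor, which rose in BC CML against CP CML (log2FC 1.58, adjusted p = 0.00312), and Ms4a6d, which rose in CP CML against WT (log2FC 2.70, adjusted p = 2.12e-08) at levels of at most 8.98 CPM. Of the 9 tested genes of the Ms4a locus, 5 rose in miR-142 KO, 4 in CP CML against WT, 3 in BC CML against miR-142 KO, where Ms4a4b fell, and 1 in BC CML against CP CML. The shares of all tested genes that passed were 36.3%, 45.4%, 39.6% and 38% in that order. The counts in CP CML against WT and in BC CML against miR-142 KO lay near them. Beside Serpinb1a, Serpinb6b fell in all 4 comparisons (log2FC -0.91 in miR-142 KO and -0.43 in CP CML against WT, and -0.42 and -0.90 in BC CML against these groups).

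Of 10 tested genes for other proteins of primary granules, 7 rose and 1 fell in miR-142 KO against WT, 6 rose and 1 fell in CP CML against WT, and 6 rose in BC CML against CP CML and 4 against miR-142 KO. Their median log2FC was 0.36, 0.38, 0.42 and 0.33 in that order, each below that of the 6 members. The shares of all tested genes that passed were 36.3%, 45.4%, 38% and 39.6%, and the count against miR-142 KO lay near its share. Cd63, a granule membrane tetraspanin, had log2FC values of 1.16 in miR-142 KO (adjusted p = 1.84e-07) and 0.94 in BC CML against CP CML (adjusted p = 3.01e-06). The acid protease gene Ctsd rose in BC CML against CP CML (log2FC 0.88, adjusted p = 1.19e-06).

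The genes that activate, pack or inhibit the proteases rose in part. Ctsc encodes cathepsin C, which removes the propeptide of elastase, proteinase 3 and cathepsin G. It rose in 3 comparisons, with log2FC values of 1.11 in CP CML against WT (adjusted p = 2.28e-08) and 1.32 in BC CML against miR-142 KO (adjusted p = 1.42e-09), and 0.46 in BC CML against CP CML (adjusted p = 0.000754), and had 0.25 in miR-142 KO (adjusted p = 0.0530). Srgn, the proteoglycan serglycin on which the proteases are packed, rose in all 4 comparisons, with log2FC values of 0.92 in BC CML against CP CML (adjusted p = 7.52e-07), 0.72 in BC CML against miR-142 KO, 0.55 in miR-142 KO and 0.34 in CP CML against WT. It had 575 to 750 CPM in CP CML, 669 to 832 in miR-142 KO and 915 to 1442 in BC CML. Calr, the chaperone calreticulin that binds the Mpo precursor, rose in miR-142 KO (log2FC 0.90, adjusted p = 4.10e-07), in BC CML against CP CML (0.59, adjusted p = 9.23e-05), in CP CML against WT (0.61, adjusted p = 6.18e-05) and in BC CML against miR-142 KO (0.30, adjusted p = 0.0235). Of the 13 tested genes of this list 7 rose in BC CML against CP CML, 5 in miR-142 KO, 8 in CP CML with 1 that fell, and 10 in BC CML against miR-142 KO with 1 that fell, with medians of 0.25, 0.23, 0.25 and 0.40. All tested genes passed at shares of 38%, 36.3%, 45.4% and 39.6% in that order, and the count in miR-142 KO lay near its share.

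Transcription factors of the granulocyte branch changed in both directions. Spi1, which encodes PU.1, rose in miR-142 KO (log2FC 0.38, adjusted p = 0.000119) and CP CML (0.46, adjusted p = 1.41e-05) against WT. It also rose in BC CML against CP CML (0.22, adjusted p = 0.013) and miR-142 KO (0.30, adjusted p = 0.0014). Gfi1, a repressor needed for neutrophil maturation, rose by similar amounts in all 4 comparisons. Its log2FC was 0.56 in miR-142 KO and 0.55 in CP CML against WT, and 0.60 in BC CML against miR-142 KO. In BC CML against CP CML its log2FC was 0.62 (adjusted p = 0.000605), with 77.8 to 120 CPM in BC CML where CP CML had 54.5 to 80.9. Myb rose in the same comparison by a log2FC of 0.24 (adjusted p = 0.00505) and in miR-142 KO against WT by 0.22 (adjusted p = 0.0119). Cebpd rose against WT in miR-142 KO (1.08) and CP CML (1.19), and in BC CML against CP CML (0.49) and miR-142 KO (0.60). Of 18 tested factors, 8 rose and 1 fell in miR-142 KO, 5 rose and 3 fell in CP CML against WT, 5 rose and 1 fell in BC CML against CP CML, and 4 rose and 4 fell against miR-142 KO, with medians of 0.27, 0.09, 0.18 and -0.12. Of all tested genes 36.3%, 45.4%, 38% and 39.6% passed in these comparisons, and the counts of factors lay near those shares in the last 3.

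Genes of early granulocyte progenitors mostly rose against WT. Of 18 tested, 14 rose and 1 fell in miR-142 KO (median log2FC 1.11), 12 rose and 1 fell in CP CML against WT (0.93), 9 rose in BC CML against CP CML (0.50), and 7 rose and 2 fell against miR-142 KO (0.29). Among all tested genes 36.3%, 45.4%, 38% and 39.6% passed in that order. Igsf6, which encodes an immunoglobulin family receptor, rose in miR-142 KO (log2FC 2.40, adjusted p = 1.26e-06) and in BC CML against CP CML (1.19, adjusted p = 0.00181). Hp, haptoglobin, rose against WT in miR-142 KO (2.62) and CP CML (3.42), and Clec5a, a myeloid lectin receptor, rose by 4.14 in CP CML.

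Genes of secondary granules and mature neutrophils were split in BC CML. Of 18 tested, 10 rose in miR-142 KO (median log2FC 1.48) and 7 rose and 2 fell in CP CML against WT (0.12). In BC CML 5 rose and 3 fell against CP CML (0.21), and 4 rose and 8 fell against miR-142 KO (-0.24). All tested genes passed at shares of 36.3%, 45.4%, 38% and 39.6% in that order. The counts in CP CML against WT and in BC CML against CP CML lay near those shares. Camp, the cathelicidin of secondary granules, had 0.531 to 12.5 CPM in miR-142 KO and 0.0424 to 0.468 in BC CML (log2FC -5.23, adjusted p = 1.62e-05). Lcn2, lipocalin 2, went the other way, with 4.04 to 17.1 CPM in miR-142 KO and 30.9 to 88.5 in BC CML (adjusted p = 8.33e-06). The summed level of the 20 genes of the list ran from 173 to 322 CPM in WT, 233 to 274 in CP CML, 241 to 501 in miR-142 KO and 302 to 428 in BC CML, below the level of Mpo alone in every library.

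**Figure D5:**
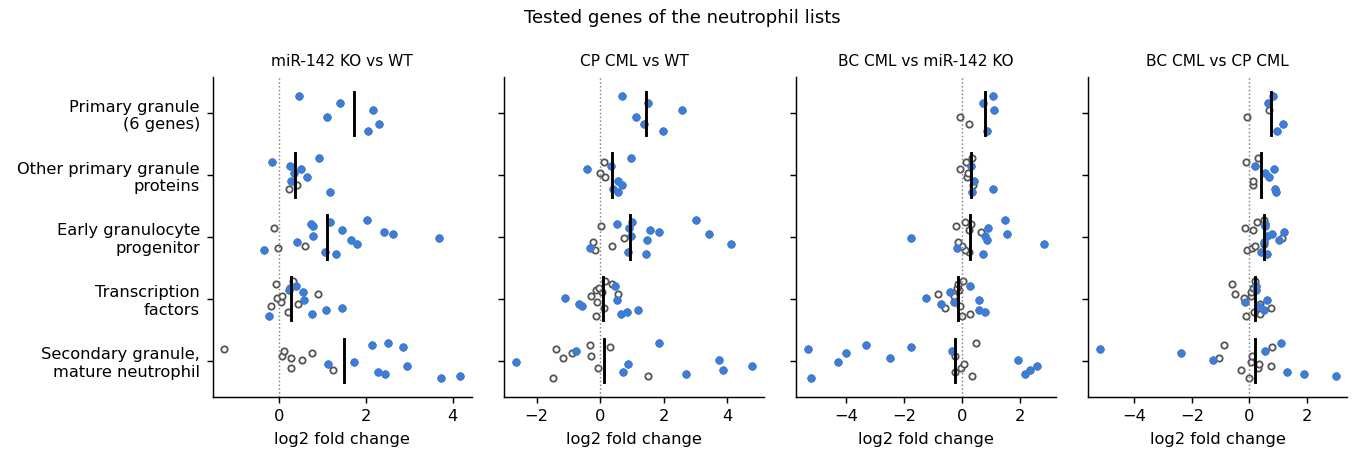
Log2 fold changes of the tested genes of 5 neutrophil lists in 4 comparisons, 1 point per gene, filled where the adjusted p was below 0.05, with a bar at the median of the list. The median of the 6 members is 1.72, 1.44, 0.81 and 0.75 from left to right, that of the mature neutrophil list 1.48, 0.12, -0.24 and 0.21.

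Markers of other cell types also differed between groups. The 12 mast cell and basophil markers, all tested, summed to 280 to 837 CPM in WT and 495 to 3175 in miR-142 KO, and were higher in BC CML (6471 to 13445) and CP CML (2449 to 4757). Of them 7 rose in miR-142 KO, 10 in CP CML against WT, 6 in BC CML against CP CML and 9 against miR-142 KO. Cpa3, the mast cell carboxypeptidase, had 44.7 to 109 CPM in WT and 2411 to 5566 in BC CML. Monocyte and macrophage markers (14 tested) summed to 332 to 1937 CPM in WT and 371 to 1249 in miR-142 KO. With BCR-ABL the sums were 1440 to 1803 CPM in BC CML and 1169 to 1499 in CP CML. Of these 6 rose in CP CML against WT and 4 in BC CML against miR-142 KO. In miR-142 KO against WT 1, F13a1, rose and 4, among them Ctss (log2FC -1.04) and C1qc (-2.33), fell. In BC CML against CP CML 2, Ctss and Cx3cr1, fell. Among all tested genes, 36.3% passed in miR-142 KO and 45.4% in CP CML against WT. In BC CML 38% passed against CP CML and 39.6% against miR-142 KO. No count of monocyte and macrophage markers exceeded these shares. The part of any of these cell types in the members' levels was not tested.

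Markers of the other branches changed in both directions. Of 8 megakaryocyte markers 6 rose and 1 fell in miR-142 KO. In CP CML against WT 1 rose and 4 fell, and in BC CML 2 fell against CP CML and 7 against miR-142 KO. Of 6 tested T and NK markers 4 rose and 2 fell in miR-142 KO, 1 fell in CP CML against WT, 1 rose and 2 fell in BC CML against CP CML, and 3 fell against miR-142 KO. Of 8 tested B lineage markers, 1 fell in miR-142 KO and 2 in CP CML against WT. In BC CML 2 fell against CP CML and 3 against miR-142 KO. Of 9 eosinophil markers 8 fell in BC CML against CP CML (median log2FC -2.76), from summed levels of 349 to 1518 CPM to 64.7 to 259, and in WT their sum ran from 62.8 to 1858. Of 10 HSC markers 7 fell and 1 rose in miR-142 KO (median -0.70) and in BC CML against CP CML (-0.61), and 8 fell in CP CML against WT (-0.65). Of 8 lymphoid-primed markers 5 fell and 1, Ccr9, rose in miR-142 KO (median -1.28), and 6 fell in CP CML against WT (-1.34). In BC CML against CP CML 3 fell and 2, Ccr9 and Il7r, rose, and 3 fell against miR-142 KO. Of 9 tested erythroid markers 8 fell in CP CML against WT and 5 in BC CML against CP CML. Among all tested genes, 36.3% passed in miR-142 KO and 45.4% in CP CML against WT. In BC CML 38% passed against CP CML and 39.6% against miR-142 KO. Some of the counts above lay near or below these shares.

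Across the 24 libraries, the gene most like the members was Anxa3, an annexin of neutrophils. Likeness was taken as Pearson's r of log2 CPM with the mean of the 6 members, each centred and divided by its SD. It was ranked over 12268 genes, as a description of libraries that share their groups. Anxa3 had r = 0.992 and mean levels of 30.9 CPM in WT, 81.3 in CP CML, 77.2 in miR-142 KO and 120 in BC CML. Mgam, Sgms2, Celsr3, Dram1, Cldn15, Gsr, C3, Igsf6 and Mapkapk3 followed, down to r = 0.976. With group means removed, so that only differences among mice of a group count, Anxa3 again led (r = 0.963), followed by Cldn15, Prom1, Gda, Sgms2, Mgam, Trem3, Hp, Igsf6 and Celsr3 (down to 0.917). Of the members themselves, which are part of that mean, Ctsg (0.965), Ms4a3 (0.959), Prtn3 (0.949), Elane (0.902) and Mpo (0.816) followed it, and Serpinb1a did so least (0.447). These r values pool groups of unequal spread: the SD of Ctsg was 57.6% of its mean in WT and 8.42% in miR-142 KO. In miR-142 KO replicate 3, Mpo was at 0.307 and Elane at 0.281 of the median of the other libraries of its group. Ctsg was at 0.850 and Ms4a3 at 0.904.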

How the data were processed

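LSKs from 24 mice were profiled by bulk RNA-seq of mRNA. The values deposited by the authors are raw read counts per gene, not normalized, with gene length in kb. Per the submitters' processing notes and the study's methods, reads were trimmed with Trimmomatic and FASTP, aligned to mm10 with STAR (2.6.0) and counted with HTSeq (0.11.1). The annotation and strand setting are not given in the sources used here, so reads of overlapping antisense genes may be mixed. Groups came from the genotype labels. The study's methods give fewer mice per group than the labels do. Replicate numbers only name samples.

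Counts were tested in edgeR 4.0.16 (R 4.3.3, limma 3.58.1): filterByExpr, TMM, all 24 libraries in 1 fit, quasi-likelihood F tests, and Benjamini-Hochberg adjustment over 13520 genes where an adjusted p below 0.05 passed. Adjusted p-values across genes are from this test. The members and gene lists were chosen with earlier results of these data known, and the lists were not tested as sets. Members and locus genes could all be named, other list genes if among the 3 smallest p of their list in a comparison, and likeness was ranked for the first 10 genes. Gene levels read outside this rule (Ly6g, Cd3e and Irf8) serve as checks, and Ccr9 and Il7r were named after their values were seen. Ratios used exact permutation tests over 924 splits. Alternatives were the likelihood ratio test, DESeq2 1.42.0, RLE and upper quartile normalization, other count filters, sex as a covariate, only the libraries compared, a limit of 1 on the absolute log2FC, and each mouse left out. The exclusion of both libraries that stood apart was added after seeing the data. The code was tested on simulated data. Figures used Matplotlib 3.10.9 in Python 3.11.15.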

Additional observations from a re-analysis of the deposited data

Results flagged for a closer look

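In 24 checks of a single library against its group (6 genes in 4 groups of 6), 2 libraries stood out, where chance gives about 1 in 20. For Mpo, WT replicate 3 had 3790.4 CPM and the next WT library 2060.4, a gap of 0.627 of the range of the group. For Mpo, miR-142 KO replicate 3 had 1397.3 CPM and the next library of its group 4385.4, a gap of 0.803 of the range. The causes were not tested.

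The fold effect of miR-142 loss on Ms4a3 differed with BCR-ABL: the difference of effects was -1.46 on the log2 scale (SE 0.40, edgeR adjusted p = 0.0378). It lost its pass in 11 of the 24 fits that each left out 1 mouse. The difference is one of fold: mean levels were 42.8 CPM in WT and 190 in miR-142 KO, and 256 in CP CML and 413 in BC CML. Ms4a3 rose by 2.15 from WT to miR-142 KO, higher in 6 of 6 mice than in any WT mouse, and had 0.69 from CP CML to BC CML, where the groups overlapped.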

How the results depend on the processing

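Log2 fold changes of the members kept their sign and their side of the threshold in 412 of 432 fits that left out 1 mouse and in 248 of 258 others, and 0 reversed. The counts of members that passed were 6 of 6 for miR-142 KO with WT and for CP CML with WT, and 4 of 6 for BC CML with miR-142 KO, with each mouse left out. For BC CML with CP CML the count ran from 3 to 5. With an absolute log2FC of at least 1, 1 member passed for BC CML with CP CML (Elane) and 2 for BC CML with miR-142 KO. For the difference of effects, where 1 member passed, 3 did with the likelihood ratio test, 2 with DESeq2, 5 with both libraries that stood apart left out, and 0 to 5 with single mice left out (5 without WT replicate 3, 2 without miR-142 KO replicate 3). Ms4a3 passed for BC CML with CP CML under the likelihood ratio test (adjusted p = 0.0437), with sex as a covariate (0.0491) and with only the libraries compared (0.00580). The causes of these changes were not tested. The share of all genes that passed under each setting is not given here, so a changed count is not a result about the members. The members had 317 to 127683 counts per library. The parts of depth and of the spread among mice in these values were not tested.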

Other observations

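Among genes of the other lists, Csf3r, Cxcr2 and Cd177 rose with the loss of miR-142 both without and with BCR-ABL. Csf3r, the G-CSF receptor, had log2FC values of 0.39 (adjusted p = 0.00205) and 0.49 (adjusted p = 0.000243). Cxcr2, a chemokine receptor of neutrophils, had a log2FC of 2.27 (SE 0.18, adjusted p = 1.49e-09) for miR-142 KO with WT and 1.30 (SE 0.17, adjusted p = 3.34e-06) for BC CML with CP CML. Cd177, a surface protein that presents proteinase 3 on neutrophils, rose in the same comparisons (adjusted p = 1.41e-05 and 0.000159), from at most 0.409 CPM in WT to 0.467 to 6.59 in miR-142 KO and from 0.330 to 1.02 CPM in CP CML to 2.63 to 10.3 in BC CML. The fold rise of Cxcr2 was smaller with BCR-ABL present (difference of effects -0.97, adjusted p = 0.0243, where 3.99% of all tested genes passed). Cxcr2 and Cd177 belong to the mature neutrophil list, which did not move in 1 direction. Of its 18 tested genes, 5 rose and 3, Mmp8 among them, fell in BC CML against CP CML, where 38% of all tested genes passed. Slpi, a secreted inhibitor of elastase and cathepsin G, rose in CP CML against WT (adjusted p = 3.87e-07), from 1.64 to 16.2 CPM to 78.6 to 157.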
